A study of Mus musculus with 2 samples.

Results

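The genes and gene-derived repeats of small nuclear and small cytoplasmic RNAs were examined in mitotic mouse embryonic stem (ES) cells for H3.3S31ph, the histone variant H3.3 carrying a phosphate on serine 31. Members were chosen by a rule on names, with earlier results of these data known, from tables that count reads per repeat type. The rule took rows named U followed by digits only, and rows whose name begins with 7SK, 7SL, 4.5S or HY and a digit. This gave 18 of 952 rows. They were U1, U2, U4 and U5 as spliceosomal RNAs, U6, 7SK, 7SLRNA, 4.5SRNA, HY1, HY3, HY4 and HY5 as products of RNA polymerase III, and U3, U7, U8, U13, U14 and U17 as further U RNAs. A row pools all genomic copies assigned to that repeat type, so working genes and their pseudogenes are counted together.

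Chromatin immunoprecipitation sequencing (ChIP-seq) covered 1 H3.3S31ph ChIP sample and 1 input sample, both from wild-type ES cells of strain 129S1/SvImJ. All cells had been held for 12 hours in 9 µM RO-3306, which inhibits the mitotic kinase CDK1, and were collected 11 hours after it was washed out. The ChIP used an antibody against H3.3S31ph, and the input was chromatin sequenced with no antibody. Each library was counted in 2 sequencing lanes, which are repeat runs and not replicates. No comparison has a replicate, so no test was made, and every interval is a 95% interval of counting error only. The tables hold no expression values, so the cell type and the mitotic state could not be checked against markers.

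Spliceosomal RNAs pair with pre-mRNA to remove introns. U1, U2, U4 and U5 are transcribed by RNA polymerase II from snRNA promoters, whereas U6, the RNA at the catalytic centre, is transcribed by RNA polymerase III. RNA polymerase III also makes 7SK, which holds the elongation factor P-TEFb inactive, 7SL, the scaffold of the signal recognition particle, the rodent 4.5S RNAs and the Y RNAs, which bind the Ro60 protein. U3, U8, U13, U14 and U17 are small nucleolar RNAs (snoRNAs) of ribosomal RNA maturation, and U7 guides 3′ end formation of replication-dependent histone mRNAs. Many of these RNAs have left retrotransposed pseudogenes in mammalian genomes. H3.3 is the histone H3 variant deposited outside DNA replication, and serine 31 is found in H3.3 but not in the canonical H3 histones.

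Scaled to the reads in the tables, small RNA rows were not enriched in the H3.3S31ph ChIP, and the spliceosomal and RNA polymerase III classes were not separable. Together the 18 rows had 6089 ChIP reads and 4972 input reads. They made up 0.0498% of the 12235477 ChIP reads in the tables (exact binomial interval 0.0485 to 0.0510) and 0.0561% of the 8856751 input reads (0.0546 to 0.0577). The ratio, which is the share among ChIP reads over the share among input reads, was 0.886 (0.854 to 0.921). The median ratio over the 704 rows with at least 100 input reads was 0.805, so on this scale the small RNA rows lay below the input level and above the typical repeat. Only 6 of the 18 rows passed this minimum, namely U1, U2, U6, 7SK, 4.5SRNA and 7SLRNA, with 410 to 1318 input reads each. Their median log2 ratio was -0.19, against -0.31 over all 704 rows, and all 6 lay above the median of the table.

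The spliceosomal rows U1, U2, U4 and U5 had 1323 ChIP reads and 1069 input reads in all, which gave a ratio of 0.896 (0.826 to 0.972). The 8 RNA polymerase III rows had 4525 ChIP reads and 3720 input reads, and their ratio was 0.880 (0.843 to 0.920). The spliceosomal ratio was thus 1.02 times the RNA polymerase III ratio, with an interval of 0.927 to 1.12 that includes 1. On the log2 scale this difference was 0.025 (-0.11 to 0.16). It was 0.017 in lane 1 and 0.032 in lane 2. Counting error at this depth covers class differences from -0.11 to 0.16 on the log2 scale. The difference uses only reads of both classes and does not depend on how the libraries are scaled to each other. It had the opposite sign, at -0.042, when U6 was counted with the spliceosomal rows by its function, and at -0.035 without the most abundant row of each class. Both values lie inside the interval.

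Among the spliceosomal rows, U1, the RNA that recognises the 5′ splice site, had 318 and 271 ChIP reads in lanes 1 and 2, against 239 and 223 input reads. Its ratio was 0.923 (0.816 to 1.04). U2, which pairs with the branch point, had 271 and 274 ChIP reads, against 218 and 236 input reads. Its ratio was 0.869 (0.766 to 0.986), so its interval lay below 1 while that of U1 included 1. Per 1000000 reads in the tables, both ChIP lanes of U2 (43.7 and 45.4) lay below both input lanes (48.8 and 53.8). The lanes of U1 overlapped, at 51.3 and 44.9 in the ChIP and 53.5 and 50.8 in the input. Lanes are repeat runs and not replicates, and with the median row set to 1 the log2 ratio of U2 was 0.11. U1 stood at 1.06 times the ratio of U2, and the interval of that comparison (0.889 to 1.27) includes 1. U4, which is base-paired to U6 before activation of the spliceosome, had 54 and 59 ChIP reads, against 46 and 47 input reads. U5, which holds the exons in place, had 33 and 43 ChIP reads, against 29 and 31 input reads. U4 and U5 had ratios of 0.880 (0.663 to 1.17) and 0.917 (0.645 to 1.31). With under 100 input reads each, they were not separable from the input level or from the median row.

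**Figure D1:**
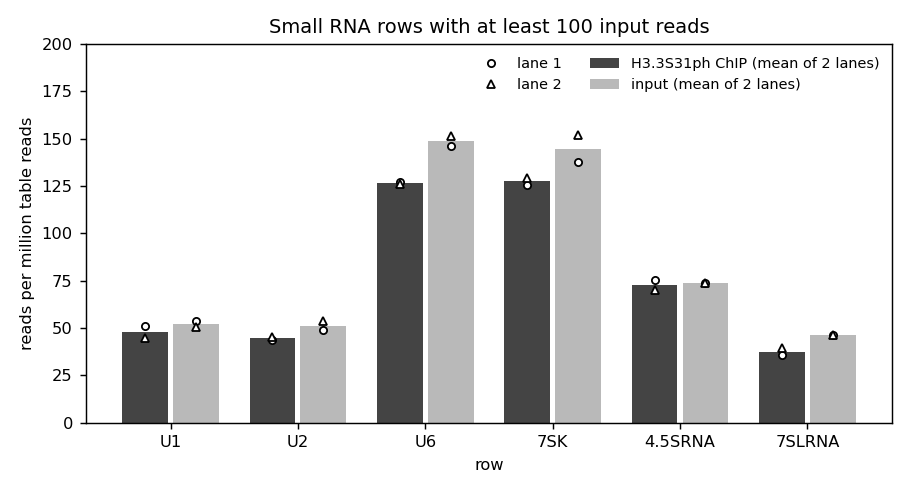
Reads per 1000000 reads in the tables (vertical axis) for the 6 small RNA rows with at least 100 input reads, with the H3.3S31ph ChIP as the left, dark bar and the input as the right, light bar of each pair; bars are means of 2 lanes, circles are lane 1 and triangles lane 2. The ChIP bar is lower than the input bar for all 6 rows, and the lanes overlap between ChIP and input for U1 and 4.5SRNA.

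Counted per 1000000 reads in the tables, U6 had 127 and 126 reads in the ChIP lanes, against 146 and 151 in the input lanes. These come from 789 and 760 ChIP reads and from 653 and 665 input reads, and give a ratio of 0.851 (0.790 to 0.916). Both ChIP lanes lay below both input lanes. 7SK had 779 and 781 ChIP reads, against 614 and 667 input reads, which on the same scale is 126 and 130 in the ChIP and 137 and 152 in the input. Its ratio was 0.882 (0.818 to 0.95), again with both ChIP lanes below both input lanes. The lanes are repeat runs and not replicates, and the direction depends on the scale. With the median row set to 1, the log2 ratio was 0.080 for U6 and 0.13 for 7SK. The ratio of 7SK was 1.04 times that of U6 (0.932 to 1.15), and these rows were not separable.

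The highest and the lowest ratios among the 6 rows belonged to RNAs that are relatives of rodent SINEs. 4.5SRNA had 469 and 422 ChIP reads, against 330 and 324 input reads. Its ratio was 0.986 (0.891 to 1.09), and 87.1% of the 704 rows had a lower one. 7SLRNA had 221 and 237 ChIP reads, against 206 and 204 input reads. Its ratio was 0.809 (0.706 to 0.926), with 52.1% of the rows lower, which placed it at the median row. The ratio of 4.5SRNA was 1.22 times that of 7SLRNA (1.03 to 1.45) and 1.16 times that of U6 (1.02 to 1.32). Of the 15 pairs among the 6 rows, these 2 were the only ones whose 95% interval excluded 1. With intervals widened to cover all 15 pairs at once, 0 of 15 excluded 1, and that of 4.5SRNA over 7SLRNA became 0.946 to 1.57.

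The Y RNA rows carry human names, and the mouse RefSeq table lists 2 Y RNA genes, Rny1 and Rny3. HY1 had 29 and 19 ChIP reads, against 20 and 22 input reads, with a ratio of 0.827 (0.535 to 1.28). HY3 had 6 and 9 ChIP reads, against 4 and 9 input reads, with a ratio of 0.835 (0.371 to 1.91). HY5, with 3 ChIP reads and 1 input read, and HY4, with 1 of each, were too low for a ratio. The 4 Y RNA rows pooled had 67 ChIP reads and 57 input reads, with a ratio of 0.851 (0.589 to 1.23). That interval includes both the input level and the median row. The Y RNA pool stood at 0.966 times the ratio of the other RNA polymerase III rows, with an interval of 0.666 to 1.40 that includes 1.

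The 6 snoRNA and U7 rows each had under 100 input reads. Their pool held 241 ChIP reads and 183 input reads, with a ratio of 0.953 (0.783 to 1.16). It was 1.06 times the spliceosomal ratio (0.860 to 1.32) and 1.08 times the RNA polymerase III ratio (0.885 to 1.33). U3, which directs early cleavages of the ribosomal RNA precursor, held about as many reads as U4, with 56 and 61 ChIP reads against 36 and 51 input reads. Its ratio was 0.973 (0.731 to 1.30). U17 had 51 ChIP reads and 42 input reads, with a ratio of 0.879 (0.573 to 1.36). U7 had 31 ChIP reads and 25 input reads, with a ratio of 0.898 (0.513 to 1.59). The point values of the sparsest rows were the most extreme, at 2.35 (0.727 to 9.90) for U14, 1.69 (0.610 to 5.36) for U8 and 0.571 (0.270 to 1.19) for U13. These rested on 13, 14 and 15 ChIP reads and on 4, 6 and 19 input reads. All 10 rows under the minimum that could be given a ratio had intervals that included both 1 and the median row. Intervals are wide at so few reads, and other rows under the minimum were not counted in this way.

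**Figure D2:**
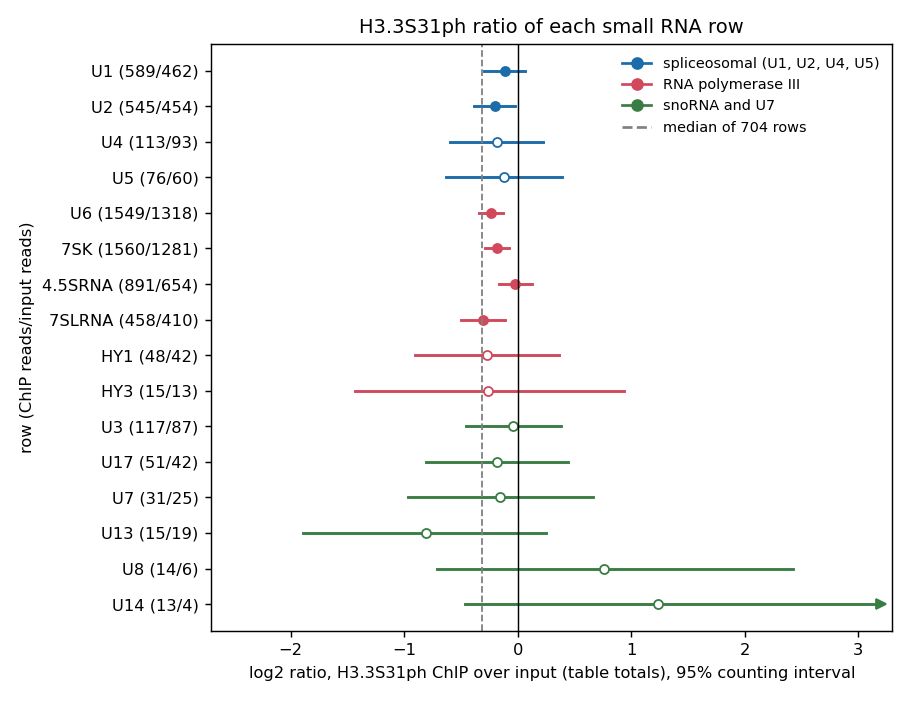
Log2 ratio of H3.3S31ph ChIP over input on table totals (horizontal axis) for the 16 small RNA rows with more than 3 reads in at least 1 library, with 95% counting intervals; filled points have at least 100 input reads, an arrow marks an interval that leaves the axis, and each label gives ChIP reads and input reads. The 6 filled points lie between the dashed median of 704 rows and the input level at 0. Within each class the intervals widen from top to bottom, and U14, with 4 input reads, has the widest.

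None of the 6 rows with at least 100 input reads passed a fold limit against the input of 0.32 on the log2 scale in either direction. A log2 ratio of at least 0.32 was reached by 0 of 6 rows, where the share over all 704 rows was 4.12%, and one of -0.32 or lower by 0 of 6, where it was 47.4%. Intervals lay wholly below 1 for 4 of 6 rows (U2, U6, 7SK and 7SLRNA), where the share over all rows was 79.5%, and wholly above 1 for 0 of 6, where it was 7.81%. With the median row set to 1, the interval lay above it for U1, 7SK and 4.5SRNA, which is 3 of 6 against 27.3% of all rows, and below it for 0 of 6 against 19.2%. On that scale 0 of 6 rows reached 0.32 and 0 of 6 were at -0.32 or lower, against 11.1% and 2.41% of all rows. Relative to the median row, 4.5SRNA stood at 1.23 (1.11 to 1.36), U1 at 1.15 (1.01 to 1.30) and 7SK at 1.10 (1.02 to 1.18). These shares rest on 6 rows and are a description only. Counts of intervals also depend on read depth, which was not matched between the 6 rows and all 704.

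**Figure D3:**
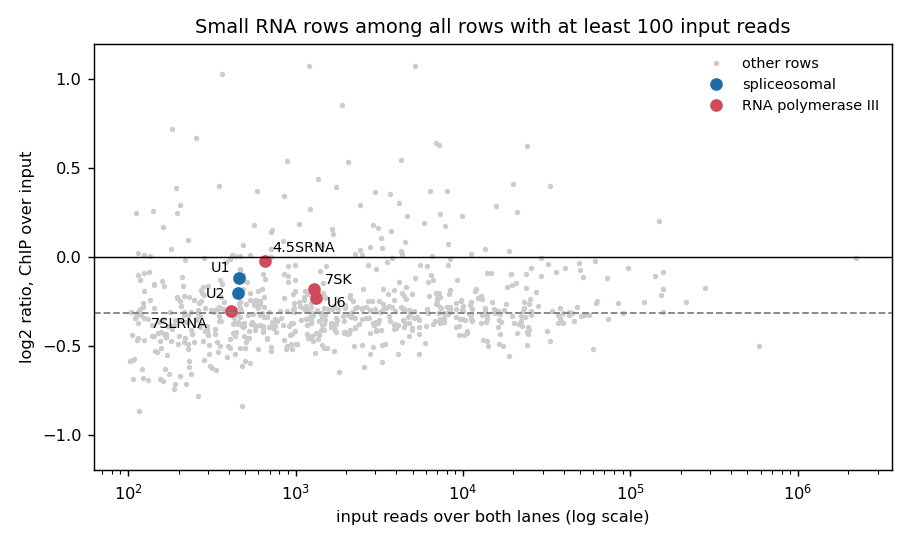
Log2 ratio of ChIP over input (vertical axis) against input reads over both lanes on a log scale (horizontal axis) for rows with at least 100 input reads; grey points are other rows, blue points spliceosomal rows, red points RNA polymerase III rows, the dashed line is the median row and the solid line the input level, and 6 other rows lie outside the axis. The 6 small RNA rows lie between the median row and the input level. The share of rows with a lower ratio was 52.1% for 7SLRNA and 70.0% for U6. It was 74.7% for U2, 76.8% for 7SK, 81.4% for U1 and 87.1% for 4.5SRNA.

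The scale between the libraries set on which side of the input the small RNA rows fell. The spliceosomal log2 ratio was -0.16 on table totals, 0.0097 on the deposited scale, which was worked out from the log2 ratios in the authors' deposited table, and 0.15 with the median row set to 1. The RNA polymerase III log2 ratio was -0.18, -0.015 and 0.13 on these 3 scales. In the authors' deposited table, which gives each lane a conservative log2 value that is 0 where its interval spans 0, 4.5SRNA was the 1 member of 18 above 0 in lane 1, at 0.031, where 13.3% of all 952 rows were above 0. In lane 2 it was 0 of 18, where 12.9% of all rows were above 0. No member was below 0 in either lane, against 40.8% and 40.2% of all rows. Whether such a value differs from 0 depends on depth, and 12 of the 18 rows had only 1 to 93 input reads. These shares were not matched for depth and are a description only.

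**Figure D4:**
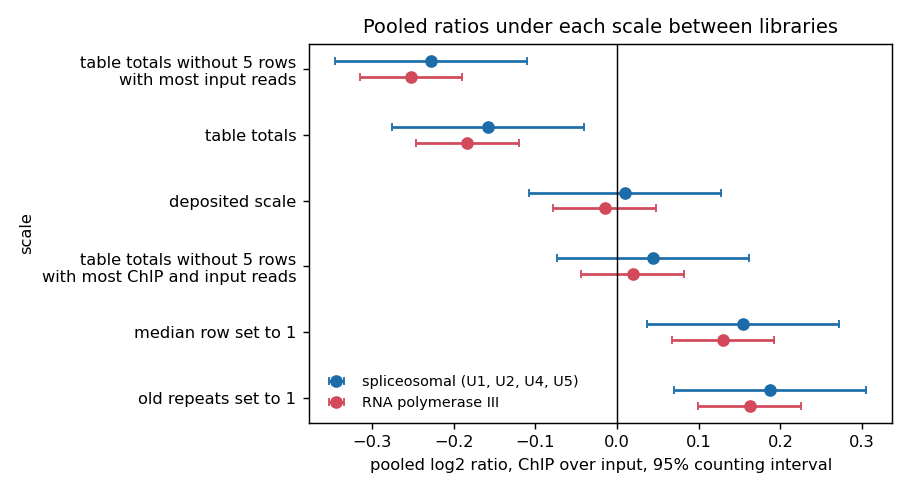
Pooled log2 ratio of ChIP over input (horizontal axis) for the spliceosomal rows (blue, upper point of each pair) and the RNA polymerase III rows (red, lower point) under 6 scales between the libraries (vertical axis), with the 95% counting interval found on table totals. Both classes move together from -0.23 (spliceosomal) and -0.25 (RNA polymerase III) to 0.19 (spliceosomal) and 0.16 (RNA polymerase III). Their distance stays the same because a change of scale shifts both equally.

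The 2 lanes gave close ratios for the 6 rows. The median gap between lanes was 0.11 on the log2 scale and the widest was 0.13. In each lane 0 of 6 rows lay outside the interval of the summed lanes. Each lane is part of that sum, so its ratio tends to lie inside the interval. Lane 1 was the higher for 5 of the 6 rows, all but 7SLRNA. Neither count was made over all rows of the tables, so both describe the 6 rows only. Over all 18 rows the ratio in lane 1 was 1.06 times that in lane 2 (0.981 to 1.14), an interval that includes 1.

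The members were also set beside the transfer RNA and 5S ribosomal RNA rows of the tables. Whether each transfer RNA row stands for a product of RNA polymerase III was not checked. The 60 transfer RNA rows pooled had 3456 ChIP reads and 3093 input reads, with a ratio of 0.809 (0.770 to 0.849). Without 1 row, tRNA-Ser-TCA(m), which was chosen after its value was seen, their ratio was 0.883 (0.840 to 0.929). The RNA polymerase III members stood at 1.09 times the ratio of all transfer RNA rows (1.02 to 1.16), and at 0.997 times (0.933 to 1.07) without that row, so the difference between these pools rested on it. The 5S ribosomal RNA row had a ratio of 0.968 (0.891 to 1.05). The RNA polymerase III members stood at 0.909 times that ratio, with an interval that just excludes 1 (0.828 to 0.999). None of these intervals was widened for the number of comparisons.

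B1 elements are SINEs derived from 7SL RNA, and 4.5SH RNA, one of the rodent 4.5S RNAs, resembles B1. The row name does not say which 4.5S RNA it holds, and the assignment of reads shared between 7SLRNA, 4.5SRNA and B1 rows is not described in the labels or files. The 14 B1 and PB1 rows pooled had 796152 ChIP reads and 603943 input reads, with a ratio of 0.954 (0.951 to 0.957). The ratio of 7SLRNA was 0.847 times that of the B1 rows (0.740 to 0.971), while that of 4.5SRNA was 1.03 times it (0.933 to 1.15). Both intervals were likewise not widened for the number of comparisons. Without 7SLRNA and 4.5SRNA the RNA polymerase III log2 ratio was -0.21, and the spliceosomal rows differed from it by 0.050, inside the interval given above.

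Read depth per base differed far more between rows than any ratio did. Of the 18 rows, 14 were matched by name to mouse RefSeq genes of GRCm38, which served only for names and gene lengths because the files use mm9. U6 (Rnu6, 107 bp) had 14.5 ChIP reads and 12.3 input reads per base of gene length. 7SK (Rn7sk, 332 bp) had 4.70 ChIP and 3.86 input reads per base, and U2 (Rnu2-10, 187 bp) had 2.91 and 2.43. At the low end, HY3 (Rny3, 101 bp) had 0.149 ChIP and 0.129 input reads per base, and U8 (Snord118, 137 bp) 0.102 and 0.0438. Input reads come from DNA, and the number of genomic copies pooled in a row was not measured here. The RefSeq table lists 1004 genes of the snRNA biotype. Chromatin was sheared to about 300 bp, and all matched genes except Rn7sk are 299 bp long or shorter, so a fragment from such a gene reaches into its flanks.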

How the data were processed

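For each of 2 lanes the authors deposited a table of raw ChIP and input read counts by repeat type, with their own log2 ratio and its bounds. Bowtie 1.0.0 and mm9 appear in the submitters' processing notes. The assignment of reads to repeat types and the treatment of multiply matching or duplicate reads are not given in the sources read. The deposited log2 ratio was found to equal that of the counts with 0.5 added to each, less 1 constant per lane (0.31 and 0.29), with a largest deviation of 0.00053.

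Lanes were summed. A ratio divides a row's share of the summed ChIP reads by its share of the summed input reads, with a 95% exact conditional (Clopper-Pearson) interval. Ratios between rows or classes have the exact conditional interval of the odds ratio. Lane 1 had 6204712 ChIP and 4467116 input reads in its table and lane 2 had 6030765 and 4389635. They cover only part of each library, and PCR duplicates are not independent molecules, so intervals cover counting error only. Rows with at least 100 input reads entered medians and counts, and pools used all rows. A row at or under 3 reads in both libraries has no ratio. Every member row is named. Of other rows, 5S, transfer RNA, B1 and PB1 rows are given. Members and lists were chosen with earlier results of these data known. A row named U13_ did not meet the naming rule. Computation used Python 3.11.15 and scipy 1.17.1. The intervals were tried on counts simulated with counting error alone, so that trial says nothing of PCR duplicates or differences between libraries. Alternatives were other scales, single lanes, other read minimums, 1 read added and other class memberships.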

Additional observations from a re-analysis of the deposited data

How the results depend on the processing

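The difference between the spliceosomal and RNA polymerase III classes stayed inside its counting interval under all alternatives tried, from -0.042 to 0.050 on the log2 scale. Changes of scale cancel in this difference, so only the other alternatives could move it. Against the input, the scale decided the direction, because a change of scale shifts every log2 ratio equally. With the median row set to 1, log2 ratios were 0.15 for the spliceosomal class, 0.13 for the RNA polymerase III class, 0.14 for all members, 0.11 for U2, 0.080 for U6, 0.13 for 7SK and 0.0067 for 7SLRNA. With 93 old MIR, L2 and DNA transposon rows set to 1 they were 0.19, 0.16, 0.17, 0.14, 0.11, 0.16 and 0.039 in the same order. On the deposited scale the classes stood at 0.0097 and -0.015. Without the 5 rows with most input reads the RNA polymerase III class was at -0.25. Without the 5 rows with most ChIP and input reads, a setting added after seeing the data, the classes stood at 0.044 and 0.019. Single lanes, 1 added read and other class memberships left both pooled classes within their intervals. The number of the 6 rows past the fold limit, 0 on table totals, was 1 in lane 1 alone and without the 5 rows with most input reads (7SLRNA), and 1 with old repeats set to 1 (4.5SRNA). No paired analysis was possible because each group has 1 sample. Depth limits 12 of the 18 rows, which had 1 to 93 input reads.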

Other observations

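A row named U13_, kept apart from U13 in the tables and outside the naming rule, had 8 and 11 ChIP reads in lanes 1 and 2, against 8 and 2 input reads. Its ratio was 1.38 (0.608 to 3.31).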
